A study of Mus musculus with 12 samples.

Results

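The proteasome module was taken as every row of the deposited count table whose gene symbol starts with Psma, Psmb, Psmc, Psmd, Psme, Psmf or Psmg followed by a digit, pseudogene symbols left out. It held 49 of the 23457 rows. The rule reads symbols alone, so it also takes in Psmc3ip, a meiotic recombination factor that is no proteasome subunit. Of the 49 rows, 48 passed the filter on low counts. Psma8, the alpha-ring subunit of the testis, held 4 to 9 reads per Parkin KO heart and 1 to 12 reads per noninduced heart and was not tested.

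The hearts came from adult mice of the C57BL/6J background, 6 of them floxed with MerCreMer and induced in the adult to lose Parkin in the heart (Parkin KO), and 6 of them floxed without Cre (noninduced). The labels place both groups at 9 to 10 weeks after tamoxifen, so floxed alleles were common to both, while MerCreMer was carried by the Parkin KO group alone. MerCreMer is a tamoxifen-dependent Cre, flanked on either side by an altered hormone-binding part of the mouse estrogen receptor. An effect of the fusion protein and an effect of Parkin loss cannot be told apart here. Polyadenylated RNA of the frozen ventricular apex was sequenced, although the tissue label reads whole heart. Every library is bulk tissue, in which fewer cells of a type and less RNA per cell cannot be told apart.

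The proteasome degrades proteins tagged with ubiquitin, the tag that E3 ligases such as Parkin attach. Its 20S core is a barrel of alpha and beta rings with the cutting sites on Psmb5, Psmb6 and Psmb7, and the 19S cap binds the ubiquitin chain, unfolds the substrate with a ring of ATPases and feeds it into the barrel. In striated muscle the system clears damaged and worn contractile proteins, and interferon exchanges the cutting subunits for Psmb8, Psmb9 and Psmb10, which form the immunoproteasome.

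Library totals lay between 13787150 and 16736228 counts in Parkin KO hearts and between 11610507 and 16884516 counts in noninduced hearts. Levels are given as CPM, counts scaled to the TMM-adjusted library total, and 1 read was worth 0.0548 to 0.0948 CPM. Some libraries stood apart. Reads of mitochondrial DNA made up 5.17% to 9.53% of the Parkin KO libraries, against 16.0% of noninduced 1, 16.7% of noninduced 2, 10.5% of noninduced 3 and 6.65% to 8.04% of the other 3 noninduced libraries. Esr1, the estrogen receptor gene to which MerCreMer reads can map, stood at 1553 to 4683 CPM in Parkin KO libraries. Against their label, the libraries labelled noninduced 1 and noninduced 3 held 558 and 962 CPM of Esr1, and the other 4 held 24.0 to 64.9 CPM. Y-linked genes held 495 to 634 reads in Parkin KO 2, 5 and 6 and 178 reads in noninduced 3, against at most 7 reads elsewhere. By these reads sex was not balanced between the groups. The main fit holds no sex term, so sex and group are partly confounded in it. Fits that take sex into account are given at the end. The 12 cardiomyocyte markers summed to 110860 to 128956 CPM in Parkin KO and 87379 to 122047 CPM in noninduced libraries. Atrial markers were uneven, with sums of 150, 303 and 1530 CPM (lowest, median, highest) in Parkin KO and 116, 1914 and 5763 CPM in noninduced libraries. All 5 were lower in Parkin KO hearts at an unadjusted edgeR p under 0.05, beside 5.54% of all genes. Their median log2 fold change was -4.32, and their adjusted p was 0.417 to 0.432 in edgeR.

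No proteasome gene passed an adjusted p of 0.05 in edgeR's quasi-likelihood test, and the smallest adjusted p among them was 0.417. Over all 13050 genes tested, 0 passed, a background of 0%. At an unadjusted p under 0.05, 7 of the 48 members (14.6%) were higher in Parkin KO hearts and 0 were lower, where the background over all genes was 5.82% higher and 5.54% lower. DESeq2 called 0 members and 10 of 11465 genes (0.0872%), and limma-voom called 0 genes. At an unadjusted p under 0.05, 6 members by DESeq2 and 7 by limma-voom were higher, beside 3.74% and 5.92% of all genes in those fits. The DESeq2 share is taken over 18568 genes, those of low count included, and the limma-voom share over 13050. Leaving out noninduced 1 or noninduced 2 left 2 of the 7 edgeR members, and the share of all genes was then 2.95% or 2.74%. Leaving out Parkin KO 4 or Parkin KO 6 left 3, beside 3.55% or 3.23% of all genes. No member separated the groups without overlap in either direction, against 0.23% of all genes higher and 0.115% lower in Parkin KO hearts.

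The differences were small and mostly of 1 sign. The log2 fold change of Parkin KO over noninduced was positive for 39 of 48 members (81.2%), against 52% of all genes, with a median of 0.14 over members and 0.01 over all genes. Of the cardiomyocyte markers, 11 of 12 were positive too, at a median of 0.13, while 7 of 9 fibroblast markers (median -0.22) and 12 of 14 tested leukocyte markers (median -0.16) were negative. Also negative were 5 of 5 atrial (median -4.32), 5 of 7 smooth muscle and pericyte (median -0.14) and 5 of 8 endothelial markers (median -0.02). The part of cell composition in the members' difference was not tested. All 6 Parkin KO hearts lay above the noninduced median for 10 of 48 members, and for 9.86% of all genes. The 95% confidence interval lay within a 1.5-fold change for 40 members and within a 2-fold change for 46.

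Most of the lowest values fell in a pair of noninduced libraries. Noninduced 1 or noninduced 2, the libraries richest in mitochondrial DNA reads, held the lowest value of all 12 libraries for 34 of 48 members (70.8%), and for 29.99% of all genes. Leaving out this pair was chosen after the data were seen, and dropping the lowest controls lowers such a difference by construction. With both left out, 29 of 48 members were higher and the median log2 fold change over members was 0.04. The share and the median over all genes in that fit are not given here, so these values have no background beside them. Then 2 members, Psmb3 and Psmd4, were under an unadjusted edgeR p of 0.05, at an adjusted p of 0.949. Of all genes, 1.83% were higher at that unadjusted p. Without noninduced 1 alone, 36 of 48 members were higher (median 0.09), beside 48.4% of all genes (median -0.01). Without noninduced 2 alone, 35 of 48 were higher (median 0.08), beside 47.3% of all genes (median -0.01). With noninduced 1 and noninduced 3 left out instead, the libraries whose Esr1 went against the label, the median over members was 0.08. The median over all genes is not given for that fit either. Psmb3 and Psmd4 were again the members under an unadjusted edgeR p of 0.05 (adjusted p = 0.577 and 0.645). With all libraries kept and mitochondrial-DNA genes left out of the fit, 38 of 48 members were higher, at a median of 0.12. Over all genes, 48.4% were then higher, at a median of -0.01. At an unadjusted edgeR p under 0.05, 6 members were higher in that fit, beside 4.72% of all genes. Any other part of the mitochondrial content in the members' difference was not tested.

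Summed over the module, proteasome transcripts took a share of all reads between 0.254% and 0.290% in Parkin KO hearts and between 0.197% and 0.284% in noninduced hearts. In CPM the sum was 2552 at the lowest, 2657 at the median and 2815 at the highest in Parkin KO hearts, against 2170, 2478 and 2722 in noninduced hearts. The ranges overlapped, and the lowest sums were those of noninduced 1 (2278 CPM) and noninduced 2 (2170 CPM). Within groups the members varied less in Parkin KO hearts, with a median coefficient of variation of 11.6%, against 17.8% in noninduced hearts, and over all genes the medians were 14.1% and 17.1%.

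**Figure D1:**
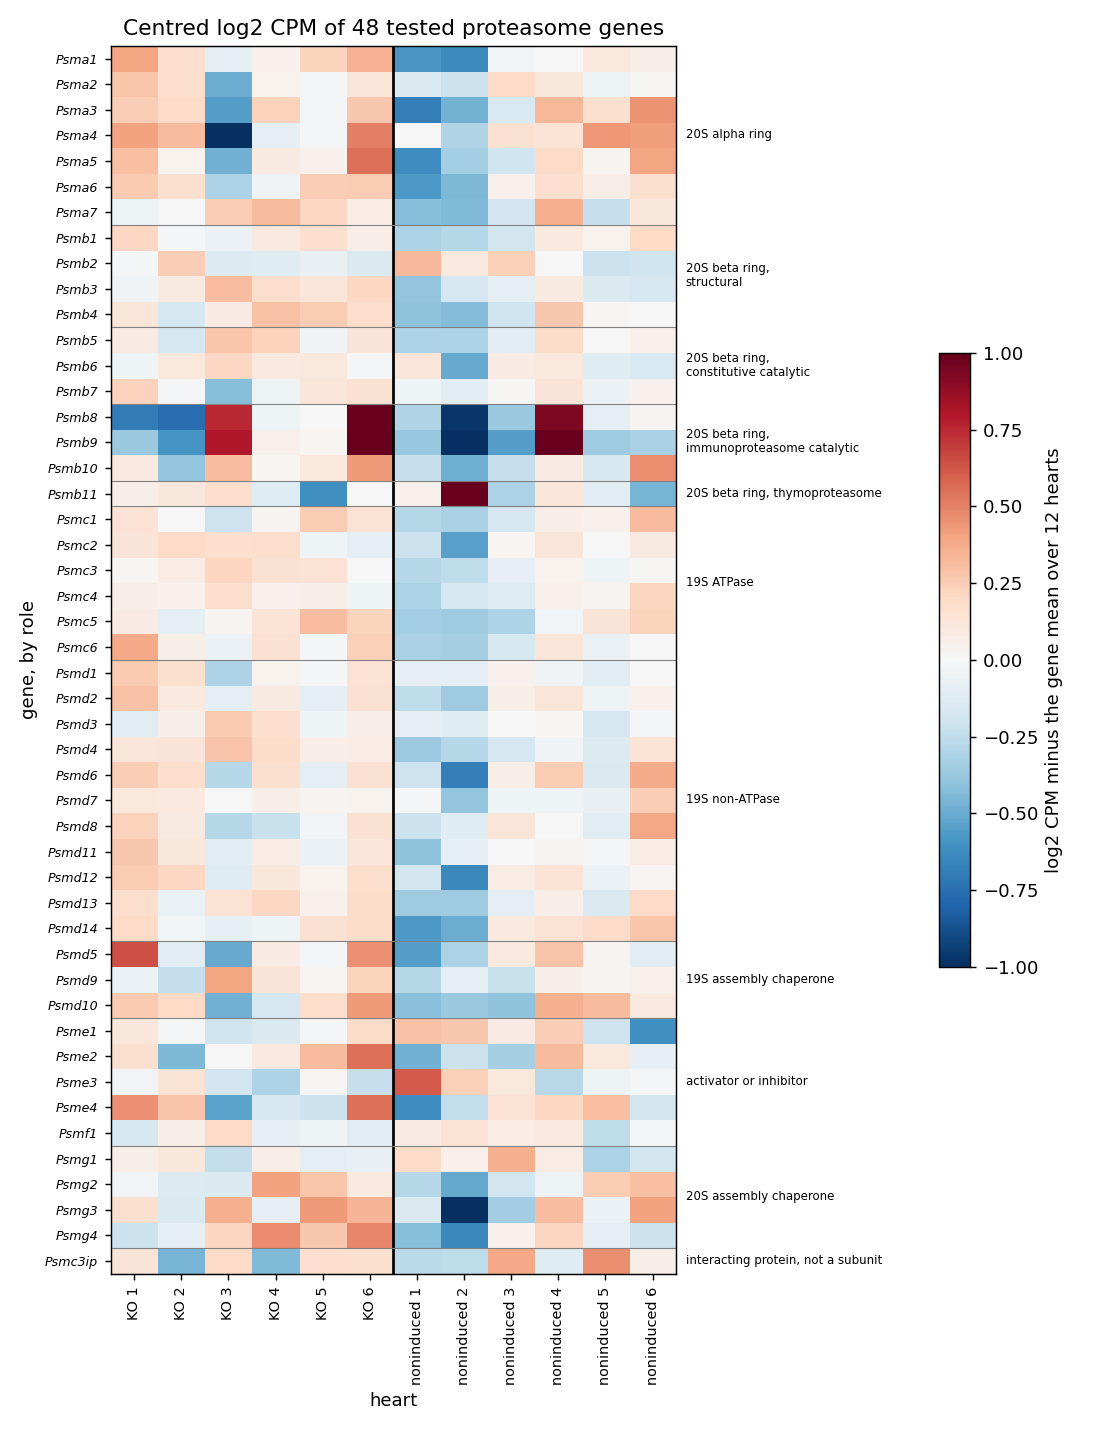
Heat map of the 48 tested proteasome genes (rows, ordered by role) in the 6 Parkin KO hearts (left) and 6 noninduced hearts (right), coloured by log2 CPM minus the gene's mean over the 12 hearts, with colours limited to 1 on either side. Noninduced 1 and 2 form the columns of low values, and 34 of the 48 genes were lowest in one or the other.

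Psmd4 encodes the 19S subunit that binds ubiquitin chains (also called Rpn10 or S5a). It lies at chr3:95032694-95042614 on the minus strand of GRCm38. It held 107, 108, 120, 112, 103 and 104 CPM in Parkin KO hearts 1 to 6, against 76.8, 80.8, 87.7, 96.1, 89.5 and 108 CPM in noninduced hearts 1 to 6. All 6 Parkin KO hearts lay above the noninduced median, and noninduced 6 reached into the Parkin KO range. The log2 fold change was 0.28 ± 0.09 (SE), with an unadjusted p of 0.00539 and an adjusted p of 0.417 in edgeR. Without noninduced 1 and 2 it was 0.18, and without noninduced 1 and 3 it was 0.21.

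Psmb3, a beta-ring subunit with no cutting site, gave the smallest p of the module. It lies at chr11:97703399-97713500 on the plus strand. It held 74.3, 81.0, 94.7, 86.3, 83.0 and 88.1 CPM in Parkin KO hearts, against 58.1, 67.9, 71.6, 81.0, 69.0 and 67.8 CPM in noninduced hearts. Parkin KO 1 and 2 fell inside the range set by noninduced 4, and the other 4 Parkin KO hearts lay above it. The log2 fold change was 0.29 ± 0.08, with an unadjusted p of 0.00414 and an adjusted p of 0.417 in edgeR, and it was 0.21 without noninduced 1 and 2.

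The upstream DNA of these genes and of the cutting subunits Psmb5 and Psmb6 is shown because proteasome genes are known targets of the factors NRF1 and NRF2, which bind antioxidant response elements, and of interferon-induced factors. The bases come from RefSeq's promoter windows on GRCm38.p6, up to 250 bases before the start, and bases inside the GENCODE gene were dropped. Capitals mark the interferon-stimulated response element core (GAAA, any 2 bases, GAAA), found on the reverse strand, in Psmd4 (chr3:95042615-95042864, minus strand) and Psmb3 (chr11:97703184-97703398, plus strand). In Psmb5 (chr14:54618023-54618245, minus strand) and Psmb6 (chr11:70525107-70525356, plus strand) they mark the antioxidant response element core TGACNNNGC.
Psmd4: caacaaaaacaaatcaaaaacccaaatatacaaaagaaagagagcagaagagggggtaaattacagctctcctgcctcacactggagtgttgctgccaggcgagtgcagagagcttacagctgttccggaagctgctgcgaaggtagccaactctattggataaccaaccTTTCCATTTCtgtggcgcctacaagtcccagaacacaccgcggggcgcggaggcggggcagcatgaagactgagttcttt
Psmb3: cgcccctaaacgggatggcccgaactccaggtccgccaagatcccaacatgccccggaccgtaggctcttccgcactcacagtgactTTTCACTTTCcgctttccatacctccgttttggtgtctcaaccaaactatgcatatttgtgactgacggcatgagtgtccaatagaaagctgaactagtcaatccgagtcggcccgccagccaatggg
Psmb5: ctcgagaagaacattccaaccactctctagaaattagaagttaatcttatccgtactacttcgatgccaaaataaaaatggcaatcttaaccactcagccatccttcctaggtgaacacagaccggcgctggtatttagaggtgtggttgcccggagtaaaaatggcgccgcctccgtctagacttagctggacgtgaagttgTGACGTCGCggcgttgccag
Psmb6: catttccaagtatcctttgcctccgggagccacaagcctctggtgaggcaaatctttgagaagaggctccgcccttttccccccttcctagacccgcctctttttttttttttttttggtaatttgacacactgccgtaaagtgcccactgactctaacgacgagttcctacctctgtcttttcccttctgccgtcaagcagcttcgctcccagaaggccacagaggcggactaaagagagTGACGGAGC

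For 41 of the 49 members, 44 windows were matched. The 250 bases before the start were read on both strands, and shares are per window. TGACNNNGC occurred in 5 of the 44 windows (11.4%), those of Psmb5, Psmb6, Psmc6, Psmd12 and Psmd9. It occurred in 10.2% of 32851 promoter windows of the same length. The interferon-stimulated core occurred in 3 windows (6.82%), those of Psmb3, Psmd4 and Psmd9, against 2.98% of all promoter windows. The gamma-activated site TTCNNNGAA, which STAT factors bind, occurred in 2 windows (4.55%), those of Psmb8 and Psmg1, against 7.02%. Psmd9 held a pair of the patterns, at separate places. A match of letters is not evidence of binding.

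The other 5 members under an unadjusted p of 0.05 belong to the core, the cap and the chaperones. Psmc3, an ATPase of the 19S ring, held 160, 172 and 185 CPM (lowest, median, highest) in Parkin KO hearts and 131, 152 and 164 CPM in noninduced hearts. Psma1, an alpha-ring subunit, held 23.9, 29.3 and 33.5 CPM in Parkin KO hearts and 16.4, 25.2 and 27.5 CPM in noninduced hearts. Psmc6, another 19S ATPase, held 19.5, 21.9 and 26.4 CPM in Parkin KO hearts and 16.1, 18.7 and 22.1 CPM in noninduced hearts. In each of the 3 the groups overlapped, with the median higher in Parkin KO hearts. Their log2 fold changes were 0.20 ± 0.08 for Psmc3, 0.33 ± 0.14 for Psma1 and 0.25 ± 0.10 for Psmc6, each at an adjusted p of 0.424 in edgeR.

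Psmg4, a chaperone that helps assemble the alpha ring, held 5.14, 7.09 and 8.38 CPM in Parkin KO hearts and 3.79, 5.36 and 6.93 CPM in noninduced hearts. Psmd13, a 19S lid subunit, held 36.2, 42.4 and 43.8 CPM in Parkin KO hearts and 29.6, 35.0 and 43.5 CPM in noninduced hearts. The ranges of both genes overlapped, and for Psmd13 the noninduced median lay below the lowest Parkin KO heart. The log2 fold changes were 0.37 ± 0.16 for Psmg4 (adjusted p = 0.432, edgeR) and 0.22 ± 0.10 for Psmd13 (adjusted p = 0.438, edgeR). Psmd13 shares 10.1% of its exon bases with Sirt3 on the opposite strand, and the libraries carry no strand.

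**Figure D2:**
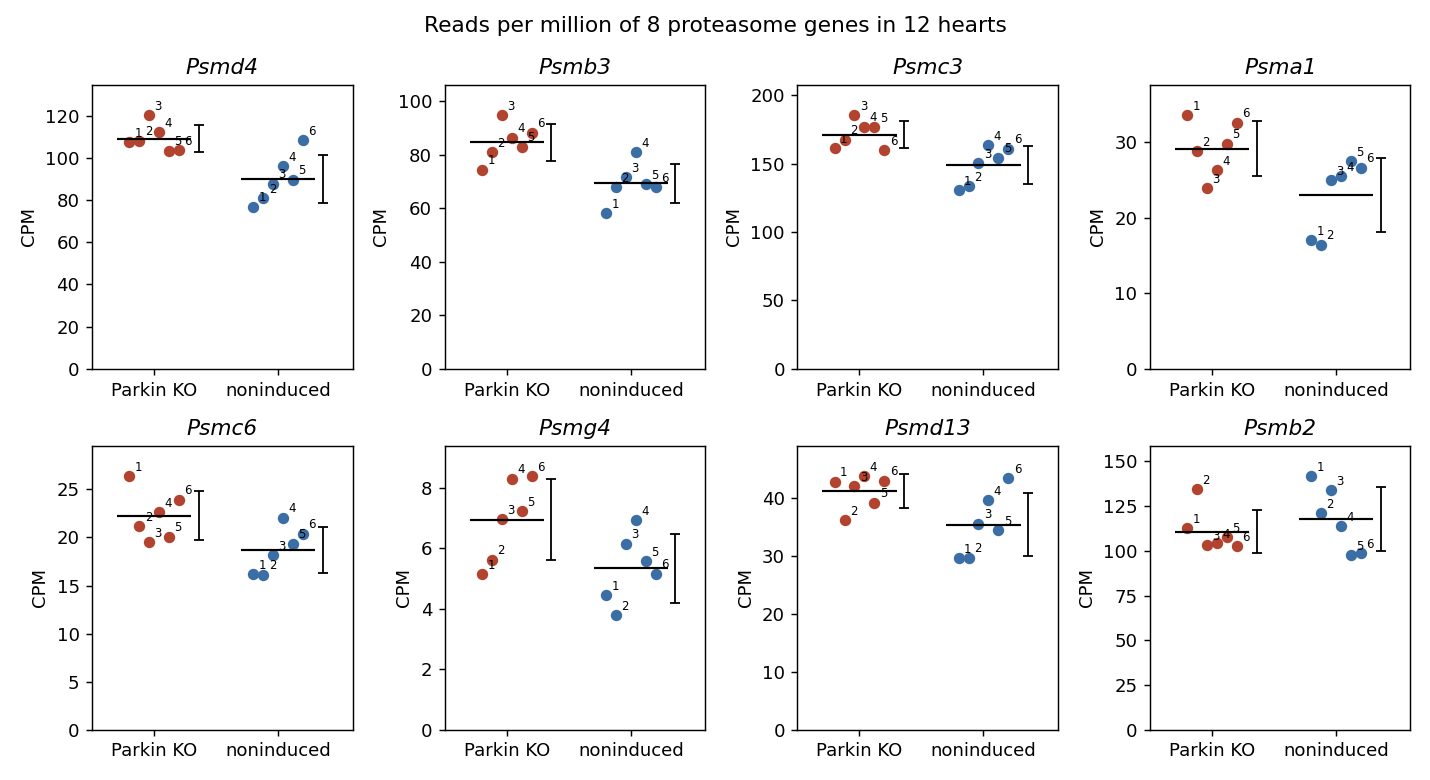
CPM of 8 proteasome genes in each heart, Parkin KO left of noninduced, with the replicate number beside each point, the line at the group mean and the bar 1 SD either side. The first 7 genes are those under an unadjusted p of 0.05, and their groups overlap, while Psmb2 had a mean lower in Parkin KO hearts with Parkin KO 2 at 134 CPM.

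By role, the 20S core was mixed in size and nearly uniform in sign. In the alpha ring, which gates the barrel, 6 of 7 tested subunits were higher in Parkin KO hearts at a median log2 fold change of 0.17. Psma4 was the exception at -0.13 ± 0.28, where Parkin KO 3 held 98 reads (5.87 CPM) while the other 5 Parkin KO hearts held 21.6 to 32.5 CPM and the noninduced hearts held 18.6 to 31.1 CPM. Of the 4 structural beta subunits, Psmb1, Psmb3 and Psmb4 were higher, and Psmb2 was lower at -0.09 ± 0.11, with 103, 106 and 134 CPM in Parkin KO hearts and 97.4, 117 and 142 CPM in noninduced hearts. Psmb11, the cutting subunit of the thymus, held 11 to 23 reads per Parkin KO heart and 14 to 28 reads per noninduced heart (-0.17 ± 0.27). Psmc3ip, outside the particle, was at -0.10 ± 0.20.

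The 3 constitutive cutting subunits did not pass the test. Psmb5, the chymotrypsin-like site, held 52.3, 63.1 and 71.3 CPM in Parkin KO hearts and 47.1, 56.5 and 66.8 CPM in noninduced hearts (log2 fold change 0.16 ± 0.10, adjusted p = 0.516, edgeR). Psmb6, the caspase-like site, held 114, 126 and 135 CPM in Parkin KO hearts and 82.8, 116 and 127 CPM in noninduced hearts (0.14 ± 0.10, adjusted p = 0.561, edgeR). Psmb7, the trypsin-like site, held 59.2, 82.4 and 93.2 CPM in Parkin KO hearts and 73.9, 78.8 and 87.1 CPM in noninduced hearts (0.02 ± 0.10, adjusted p = 0.949, edgeR). For Psmb7 the Parkin KO range enclosed the noninduced range, and the sign of its fold change turned under several of the settings tried. Copies named Psmb5-ps, Psmb6-ps and Psmb7-ps1 are listed by RefSeq, so the counts of these 3 genes are uncertain to the extent that reads were shared. Psmb7 also shares 11.8% of its exon bases with Nek6 on the opposite strand.

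In the 19S cap, all 6 ATPases that unfold the substrate had positive log2 fold changes, with a median of 0.18. Of the 11 non-ATPase subunits, which include those that bind and trim ubiquitin chains, 10 were positive and Psmd8 was at -0.02 ± 0.11. The median of the 11 was 0.13. The ratio of summed 19S to summed 20S CPM was 1.61 at the lowest, 1.70 at the median and 1.76 at the highest in Parkin KO hearts, against 1.57, 1.66 and 1.82 in noninduced hearts. The range in Parkin KO hearts lay inside the range in noninduced hearts. The 19S assembly chaperones Psmd5, Psmd9 and Psmd10 were each positive, at a median of 0.16, and the 20S assembly chaperones Psmg2, Psmg3 and Psmg4 were positive while Psmg1 was at -0.07 ± 0.12.

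Among the genes of the caps that replace 19S, Psme2 and Psme4 were positive and Psme1 and Psme3 negative, and none passed the test. Psme1, a subunit of the interferon-inducible PA28 activator, held 98.4, 112 and 128 CPM in Parkin KO hearts and 73.8, 127 and 138 CPM in noninduced hearts (log2 fold change -0.05 ± 0.14, adjusted p = 0.887, edgeR). Psme2, its partner, held 28.6, 42.8 and 57.2 CPM in Parkin KO hearts and 27.95, 35.2 and 48.6 CPM in noninduced hearts (0.23 ± 0.16, adjusted p = 0.548, edgeR). Both pairs of ranges overlapped widely, and Psme2 counts are uncertain because RefSeq lists a copy, Psme2b. Psme3, the nuclear PA28 subunit, stood at -0.22 ± 0.13, Psme4, the PA200 activator, at 0.15 ± 0.19, and Psmf1, an inhibitor of the 20S core, at -0.05 ± 0.09. Psme1 had its highest values of all 12 hearts in noninduced 1 or 2, as had Psmb2, Psme3 and Psmb11, the reverse of the order in most of the module.

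**Figure D3:**
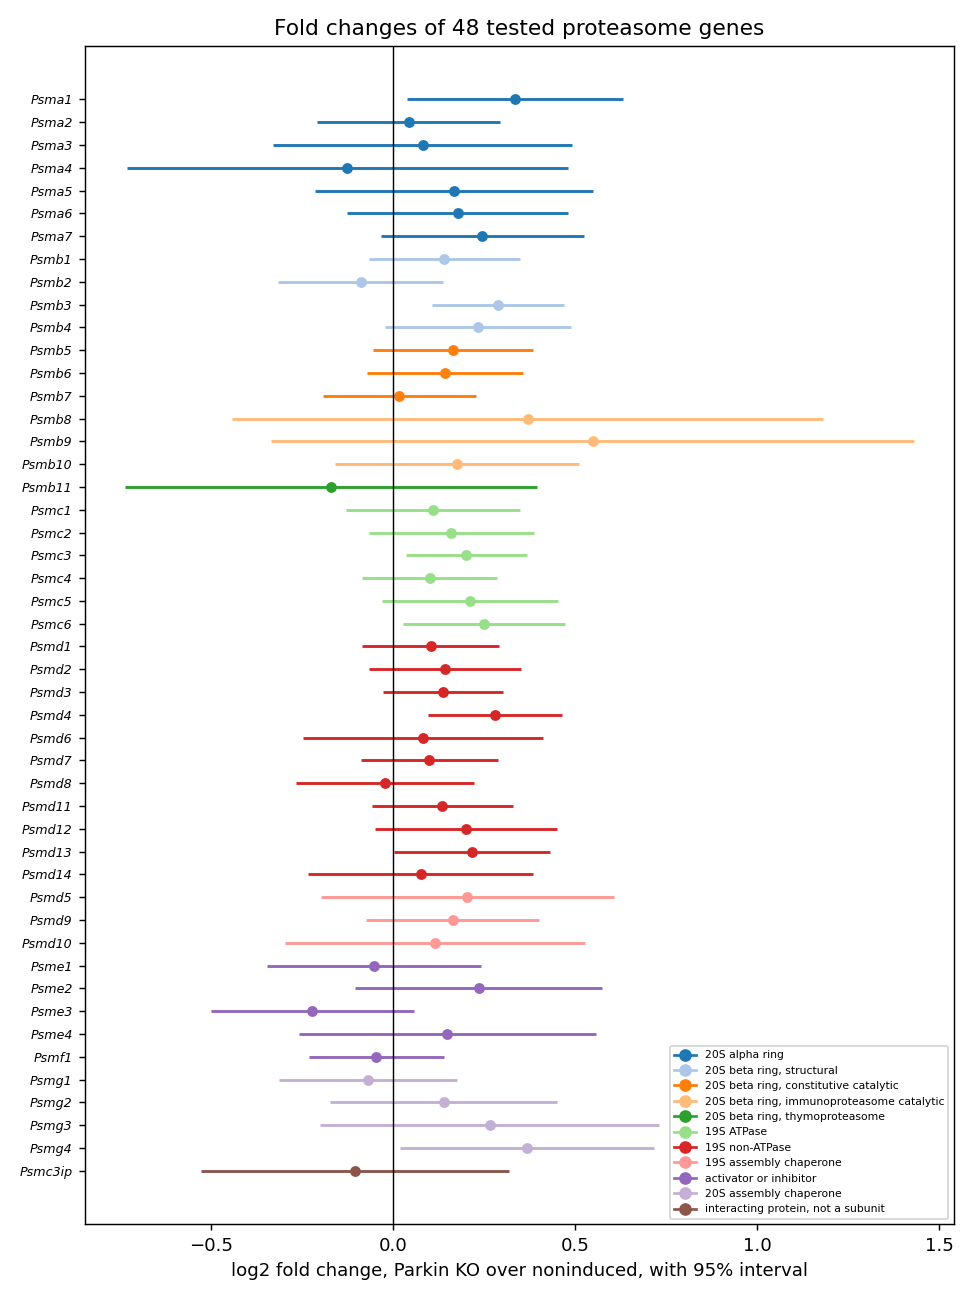
Log2 fold change of Parkin KO over noninduced hearts (x axis) with its 95% confidence interval for the 48 tested genes, grouped by role. Of these genes, 39 lie right of 0, and the intervals of Psmb8 and Psmb9 are the widest.

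Psmb9 and Psmb8 had the largest fold changes and the largest standard errors of the 48 members, and Psmg4 followed with a fold change near that of Psmb8. Psmb10 was not among them. Psmb9 held 4.60, 7.10 and 22.2 CPM in Parkin KO hearts and 3.13, 5.36 and 15.5 CPM in noninduced hearts (log2 fold change 0.55 ± 0.41, adjusted p = 0.585, edgeR). Psmb8 held 8.03, 13.4 and 39.2 CPM in Parkin KO hearts and 6.92, 11.9 and 26.0 CPM in noninduced hearts (0.37 ± 0.38, adjusted p = 0.684, edgeR). Psmb10 held 33.9, 47.7 and 59.9 CPM in Parkin KO hearts and 31.7, 38.9 and 61.4 CPM in noninduced hearts (0.17 ± 0.16, adjusted p = 0.642, edgeR). The groups overlapped for all 3, and the highest values of Psmb8 and Psmb9 came from a few hearts of both groups.

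Parkin KO 6 was highest in Psmb8 and Psmb9 (39.2 and 22.2 CPM), followed by noninduced 4 (26.0 and 15.5 CPM) and Parkin KO 3 (23.0 and 12.1 CPM). The other 9 hearts held 6.92 to 13.9 CPM of Psmb8 and 3.13 to 7.18 CPM of Psmb9. Tap1, the peptide transporter that shares interferon control with them, followed the same order at 61.5, 43.5 and 28.3 CPM, against 8.29 to 14.5 CPM elsewhere. Psmb10 was highest in noninduced 6, then in Parkin KO 6 and Parkin KO 3. Without Parkin KO 6 the log2 fold change of Psmb8 was -0.04 and that of Psmb9 was 0.12. These were the lowest values with 1 library left out, and the highest were 0.65 and 0.99. Without both Parkin KO 6 and noninduced 4 they were 0.25 and 0.57, at adjusted p-values of 0.726 and 0.411 in edgeR. Psmb9 was higher at an unadjusted edgeR p under 0.05 in that fit and in the fit without noninduced 4 alone. Of all genes, 5.18% and 7.66% were higher at that p in these fits. Psmb8 shares 14.7% of its exon bases with the noncoding model Gm20496 on the opposite strand. Psmb9 shares 5.79% of its exon bases with Tap1 itself on the opposite strand, and the libraries carry no strand.

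The 26 interferon and antigen presentation genes summed to 688, 861 and 2001 CPM in Parkin KO hearts and 809, 933 and 1948 CPM in noninduced hearts. The highest sums were again those of Parkin KO 6 (2001 CPM), noninduced 4 (1948 CPM) and Parkin KO 3 (1208 CPM). Of these genes, 18 were positive and 8 negative with a median of 0.12, and 0 were under an unadjusted p of 0.05. Leukocyte markers (19 of 20 in the table) summed to 361 to 702 CPM in Parkin KO and 376 to 707 CPM in noninduced hearts, with Parkin KO 6 at 702 and noninduced 4 at 707 CPM. The antigen presentation gene Cd74 weighs most in these sums. It held 115, 156 and 351 CPM (lowest, median, highest) in Parkin KO hearts and 109, 203 and 406 CPM in noninduced hearts. The sums are thus no even measure of leukocyte RNA. Of the leukocyte markers, Cd68, a macrophage protein, was at -0.43 ± 0.13, C1qb, a complement chain, at -0.32 ± 0.12 and Ptprc, the pan-leukocyte CD45 gene, at -0.36 ± 0.16, each under an unadjusted p of 0.05 and at an adjusted p of 0.417 to 0.424 in edgeR. None of the 19 markers was at 0 in every library. The part of leukocyte RNA in the immunoproteasome values was not tested.

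**Figure D4:**
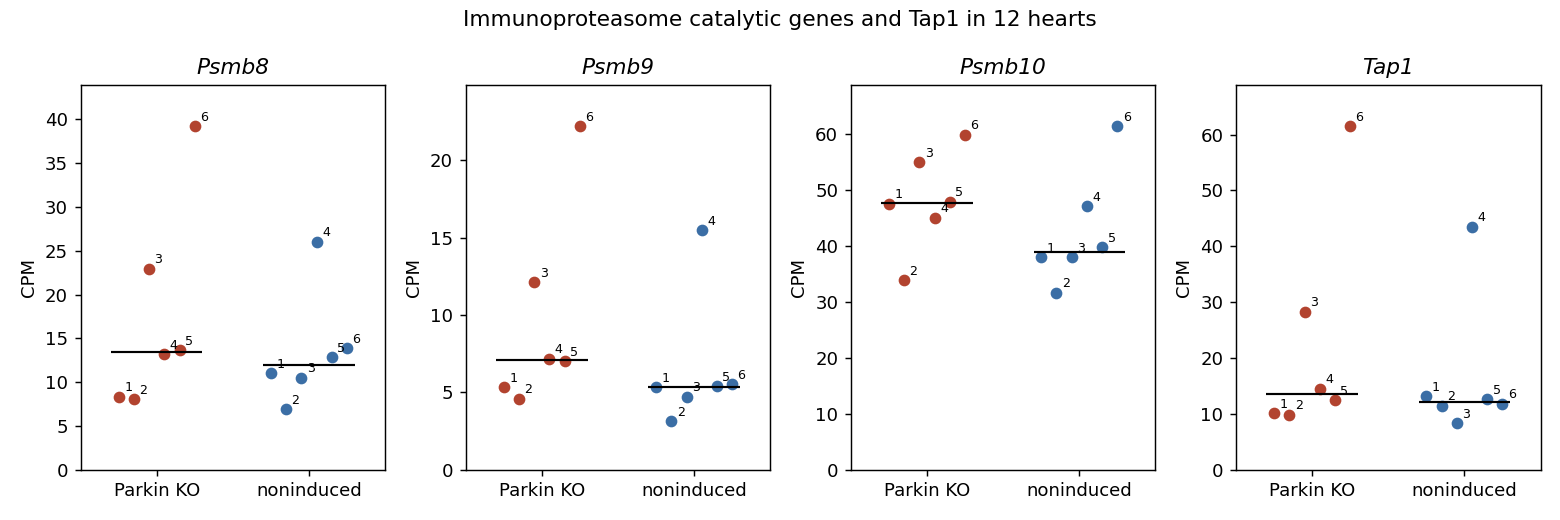
CPM of Psmb8, Psmb9, Psmb10 and Tap1 in each heart, Parkin KO left of noninduced, with replicate numbers and a line at the group median. Parkin KO 6 and noninduced 4 stand above the other hearts of their group for Psmb8, Psmb9 and Tap1.

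Each immunoproteasome subunit was set against the constitutive subunit it replaces, as reads of the first in percent of reads of the second, a ratio that does not depend on library scaling. Psmb8 amounted to 13.5, 21.5 and 61.3% of Psmb5 in Parkin KO hearts and to 14.8, 22.4 and 39.0% in noninduced hearts. Psmb9 amounted to 3.67, 5.67 and 19.1% of Psmb6 in Parkin KO hearts and to 3.84, 4.63 and 12.3% in noninduced hearts. Psmb10 amounted to 43.3, 57.0 and 92.9% of Psmb7 in Parkin KO hearts and to 42.9, 50.7 and 75.0% in noninduced hearts. The mean log2 ratios differed by 0.09 for Psmb8 over Psmb5, 0.37 for Psmb9 over Psmb6 and 0.18 for Psmb10 over Psmb7. By exact two-sided permutation over every split of the 12 hearts into 6 and 6 the p-values were 0.829, 0.42 and 0.368, and adjusted over the 3 ratios 0.829, 0.63 and 0.63. The smallest p these splits allow is 0.00216.

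Levels of different genes were compared on the deposited FPKM values, which are scaled by length. In the alpha ring, whose 7 subunits each occur once per ring, the median over 12 hearts ran from 11.8 FPKM for Psma3 to 92.6 FPKM for Psma7, a 7.87-fold span. Psma7 was highest in 12 of 12 hearts and Psma3 lowest in 11 of 12. The constitutive beta ring was more even, from 74.4 FPKM for Psmb1 to 164 FPKM for Psmb2, a 2.20-fold span. Among the 19S ATPases Psmc6 was lowest (14.5 FPKM) and Psmc3 highest (110.3 FPKM), each in 12 of 12 hearts. Psmd14, the deubiquitinase of the cap, was lowest of the non-ATPase subunits at 9.80 FPKM, and Psmd4 was highest at 95.5 FPKM.

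**Figure D5:**
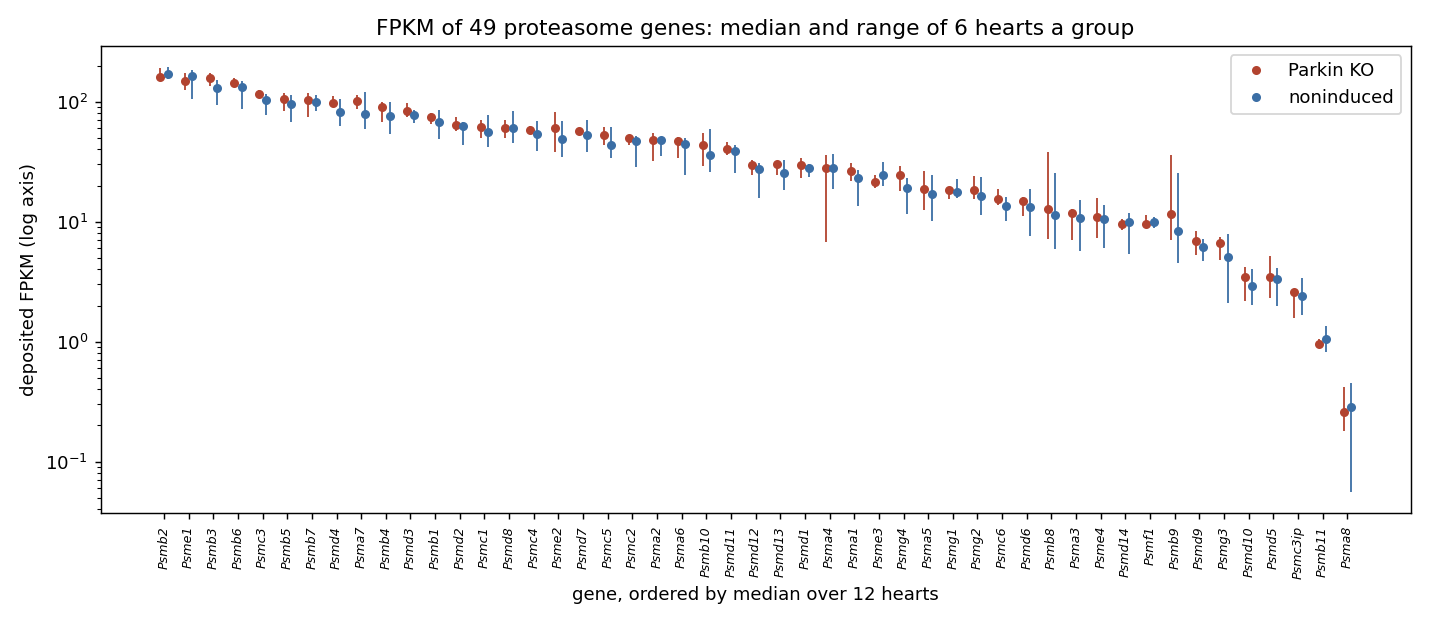
FPKM of the 49 proteasome genes on a log axis, with Parkin KO and noninduced hearts drawn separately. Each group has a point at its median and a line from its lowest to its highest heart. Genes are ordered by the median over the 12 hearts. By that median Psmb2 (164 FPKM) leads the list, and Psma8 and Psmb11 lie at its lower end.

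Across the 12 hearts, Psmd4 was most like Psmc3 (Pearson r of log2 CPM 0.927), Psmd13 (0.891) and Psmc4 (0.867), values that share library scaling and are given as a description. The median correlation of a member with the rest of the module had a median of 0.49, and 6 of 48 members had a negative one, with Psme3 at -0.59 and Psmb2 at -0.43 among them.

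Other genes of the pathway differed by list. Over all genes 52% were positive at a median log2 fold change of 0.01, and over the members 81.2% at a median of 0.14. Of 17 proteasome partners outside the symbol rule, 14 were in the table and tested, 10 were positive, and the median log2 fold change was 0.08. Among them Zfand5, a proteasome-binding zinc finger protein that promotes breakdown in muscle wasting, was at 0.31 ± 0.13 (unadjusted p = 0.0327, adjusted p = 0.424, edgeR). Nfe2l1, which encodes NRF1, the factor that raises proteasome genes when degradation fails, held 867, 902 and 979 CPM in Parkin KO hearts and 810, 875 and 976 CPM in noninduced hearts (0.04 ± 0.08, adjusted p = 0.851, edgeR). Of the 13 tested genes of the NRF1 route and of shuttle factors, 5 were positive and 8 negative, and Stub1, a chaperone-linked E3 ligase, stood at 0.33 ± 0.13 (adjusted p = 0.424, edgeR). Among 12 ubiquitin genes and activating or conjugating enzymes, 6 were positive and 6 negative. Ube2d1, a conjugating enzyme, was at -0.46 ± 0.16 (unadjusted p = 0.013, adjusted p = 0.417, edgeR).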

How the data were processed

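Polyadenylated RNA of 12 hearts was measured, and groups and numbers came from the labels. Control columns named wt were matched to noninduced samples by number. The authors deposited whole-number read counts per gene symbol and, in a second table, FPKM values. Build mm10 and the tools TopHat2 2.0.10, Bowtie2, HTSeq and Cufflinks 2.1 are listed per the submitters' processing notes. For the annotation and the counting mode nothing is stated in the labels read. The libraries keep no strand, per the labels' protocols.

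Counts were fitted in R 4.3.3 with edgeR 4.0.16 (TMM scaling, filterByExpr, quasi-likelihood F test, two-sided, group term alone) on the whole table, with Benjamini-Hochberg adjustment over the 13050 genes tested and a threshold of 0.05. CPM values use TMM-scaled totals. Standard errors and 95% intervals were derived from the F statistic. Alternatives used DESeq2 1.42.0, limma 3.58.1 and log2(FPKM + 1). Log ratios of subunits used a prior count of 0.5. The code was tested on simulated counts.

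The members and gene lists were chosen with earlier results of these data known. Named were Psmd4, the cutting subunits, Psme1, Psme2 and Psme4, members under an unadjusted p of 0.05, the 3 largest fold changes, and up to 3 genes per outside list under that p with Nfe2l1. Psma4, Psmb2 and others outside this rule were named after their values were seen. Not reported here are the transcript of the deleted gene and 1 gene of the outside lists. Gene positions come from GENCODE on GRCm38 and promoter bases from RefSeq on GRCm38.p6. Nothing in the labels ties equal numbers together. Titles name separate hearts but no separate litters, and p-values measure the spread between these libraries. Confidence intervals do not cover errors of mapping or of shared reads.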

Additional observations from a re-analysis of the deposited data

Results flagged for a closer look

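Single hearts stood far from the rest of their group in 4 of the 96 combinations of member and group examined, of which chance alone flags about 1 in 20. Psmb2 reached 134 CPM in Parkin KO 2, against 103 to 113 CPM in the other 5 Parkin KO hearts. In noninduced 4, Psmb8 reached 26.0 CPM, where the remaining 5 noninduced hearts held 6.92 to 13.9 CPM, and Psmb9 reached 15.5 CPM, where they held 3.13 to 5.54 CPM. In noninduced 2, Psmb11 stood at 2.65 CPM, against 0.877 to 1.33 CPM in the others.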

How the results depend on the processing

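The count of 0 called proteasome genes held under all 26 alternatives. DESeq2 called 10 genes and the fit without noninduced 1 and 3 called 1, none of them members. The 7 members higher at an unadjusted p under 0.05 became 3 with either FPKM setting, and 2 without noninduced 1 and 3, without noninduced 1 and 2, with a sex term (sex read from Y-linked reads, noninduced 3 left out) and in libraries without Y-linked reads. Over these settings 1.83% to 4.97% of all genes were higher at that p. Leaving out 1 library gave 2 (noninduced 1 or 2) to 10 members higher (without noninduced 4) and 0 to 1 lower, and the share of all genes higher moved likewise, at 5.82% in the full fit, 2.95% without noninduced 1, 2.74% without noninduced 2 and 7.66% without noninduced 4, with the members' median ranging from 0.08 to 0.18. Without Parkin KO 4 or 6 the count was 3. Psmb3 and Psmd4 stayed among these members in every setting. Leaving out 1 library, the log2 fold change of Psmd4 ran from 0.22 to 0.33, with adjusted p from 0.211 to 0.671. The sets without noninduced 1 and 2 and without Parkin KO 6 and noninduced 4 were chosen after seeing the data.

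Signs turned for genes near 0. Psmb7 was at -0.0013 with DESeq2 size factors and with mitochondrial-DNA genes left out, -0.0024 without noninduced 1 and 3, -0.0535 with the sex term, -0.0532 in libraries without Y-linked reads, -0.0291 without noninduced 1 and 2, and -0.0296 to 0.0800 with 1 library left out. Psme1 was at 0.0116 without noninduced 1 and 3 and 0.0684 without noninduced 1 and 2, where Psme4 was at -0.0223. Psmb8 ran from -0.0432 (without Parkin KO 6) to 0.65. The Psmb8 to Psmb5 ratio was -0.194 in libraries without Y-linked reads, -0.0512 without noninduced 1 and 2, -0.0243 without Parkin KO 6 and noninduced 4, and -0.183 to 0.254 with 1 library left out. The cause of these changes was not tested.

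Equal replicate numbers did not pair the hearts (correlations of deviations -0.099 to 0.166, and 1 of 6 matched its own number best). With the replicate block, 0 members were called, 10 were higher at an unadjusted p under 0.05 (7.13% of all genes, against 5.82% without the block), and the median was 0.15. With 6 hearts a group, the 95% intervals reach past a 1.5-fold change for 8 of 48 members.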
